A study of Homo sapiens with 2 samples.

Results

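HLA class I peptide presentation genes were examined in the cell line SU-DHL-1 with and without knockdown of the NKL homeobox gene HLX by siRNA. The group held 9 genes, given by a list of symbols: the heavy chain genes HLA-B, HLA-C, HLA-E and HLA-F, the light chain gene B2M, the peptide transporter genes TAP1 and TAP2, the tapasin gene TAPBP, and the transactivator gene NLRC5. Their members on the array were all probe sets that the platform annotation pairs with exactly 1 of these symbols. This rule found 25 probe sets for the 9 genes, of 41091 probe sets for 19775 genes, and 0 probe sets that paired a member with a further gene. SU-DHL-1, a long established line, derives from anaplastic large cell lymphoma (ALCL), a T-lineage malignancy, and carries the NPM1-ALK fusion. The siCTR group received a commercial negative control siRNA and the siHLX group an siRNA against HLX, both by electroporation of 80 pmol with harvest after 20 h, and both groups share the cell line and its fusion. There was 1 array per group (Affymetrix HG-U133 Plus 2.0). No group had replicates, so no test was possible, no p-value is given and every difference describes these 2 arrays.

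Class I molecules show peptides from inside the cell to CD8 T-cells and to receptors of NK cells. The heavy chain pairs with beta-2 microglobulin, the product of B2M. Peptides cut by the proteasome are pumped into the endoplasmic reticulum (ER) by the TAP1/TAP2 transporter, and tapasin holds the empty class I molecule at this transporter until a peptide is bound. HLA-B and HLA-C are classical, highly polymorphic chains. HLA-E is a conserved chain read by NK-cell receptors, and HLA-F is a further non-classical chain. NLRC5 drives transcription of class I genes through a conserved promoter module, to which RFX factors, CREB/ATF factors and NFY bind. Interferon and NFkB act through separate sites of class I promoters.

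The promoters are shown to mark where letters of such elements occur, and no motif was found in every window. RefSeq promoter sequences (GRCh38.p14) matched 7 of the 9 members, without HLA-E and NLRC5, and the 200 bases before the transcription start are printed 5′ to 3′ on the strand of the gene. Capitals mark matches on both strands to 4 motifs: CCAAT (the Y box bound by NFY), TGACG (the core of the X2 box bound by CREB/ATF), GAAA and GAAA with any 2 bases between them (an interferon response element), and GGG, any 2 bases, TT, any 1 base and CC (an NFkB site). Neighbouring matches of the interferon element can overlap, and then form 1 run of capitals. The windows lie on the minus strand at chr6:31357180-31357379 for HLA-B, chr6:31272093-31272292 for HLA-C, chr6:32853705-32853904 for TAP1 (the more upstream of its 2 listed starts), chr6:32838740-32838939 for TAP2 and chr6:33314079-33314278 for TAPBP, and on the plus strand at chr6:29723234-29723433 for HLA-F and chr15:44711317-44711516 for B2M.
HLA-B: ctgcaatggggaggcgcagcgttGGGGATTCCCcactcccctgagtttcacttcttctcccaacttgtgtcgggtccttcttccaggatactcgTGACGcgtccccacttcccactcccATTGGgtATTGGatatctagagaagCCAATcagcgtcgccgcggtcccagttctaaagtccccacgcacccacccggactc
HLA-C: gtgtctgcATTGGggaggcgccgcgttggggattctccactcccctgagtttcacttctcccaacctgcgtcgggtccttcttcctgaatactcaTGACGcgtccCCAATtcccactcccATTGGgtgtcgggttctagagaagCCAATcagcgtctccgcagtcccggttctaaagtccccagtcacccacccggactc
HLA-F: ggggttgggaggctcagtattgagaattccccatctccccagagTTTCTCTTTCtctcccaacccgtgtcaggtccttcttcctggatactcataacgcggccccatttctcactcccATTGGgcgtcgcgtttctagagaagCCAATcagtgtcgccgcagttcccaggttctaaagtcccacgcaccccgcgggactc
B2M: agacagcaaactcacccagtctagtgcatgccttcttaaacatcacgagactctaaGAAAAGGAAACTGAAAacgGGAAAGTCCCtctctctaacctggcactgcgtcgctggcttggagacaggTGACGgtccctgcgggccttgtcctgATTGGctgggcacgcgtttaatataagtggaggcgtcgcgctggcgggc
TAP1: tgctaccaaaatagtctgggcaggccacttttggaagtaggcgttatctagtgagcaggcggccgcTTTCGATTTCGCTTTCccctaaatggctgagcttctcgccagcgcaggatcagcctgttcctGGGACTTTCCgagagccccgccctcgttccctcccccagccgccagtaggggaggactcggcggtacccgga
TAP2: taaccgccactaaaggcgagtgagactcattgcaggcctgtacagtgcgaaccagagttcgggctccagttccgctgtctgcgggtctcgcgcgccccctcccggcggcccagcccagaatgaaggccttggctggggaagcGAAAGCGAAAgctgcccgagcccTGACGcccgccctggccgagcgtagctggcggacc
TAPBP: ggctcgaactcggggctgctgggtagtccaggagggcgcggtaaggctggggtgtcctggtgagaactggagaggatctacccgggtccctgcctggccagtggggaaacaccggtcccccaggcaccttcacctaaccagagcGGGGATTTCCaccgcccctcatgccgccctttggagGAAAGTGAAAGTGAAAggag

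CCAAT was present in the windows of the 3 heavy chain genes and of B2M, and in 28.0% of the 34780 distinct promoter windows of the same length in RefSeq. TGACG was found for HLA-B, HLA-C, B2M and TAP2, against 18.4% of all windows. The interferon element letters were found for HLA-F, B2M, TAP1, TAP2 and TAPBP, against 2.4%, and the NFkB letters for HLA-B, B2M, TAP1 and TAPBP, against 4.26%. Fixed letters miss variants, so a window without a match can still hold such a site. TAAT, the core letters of many homeodomain sites, was searched in the same way, as HLX encodes a homeodomain protein. It occurred in the window of B2M and in no other window of these 7 genes, against 40.9% of all windows. The window before the other listed start of TAP1, which is not printed, held no match to any of these motifs. Sites of RFX factors were not searched. The matches describe the windows and are no measure of binding.

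The values were log2 RMA intensities, a scale on which 1 unit is a 2-fold difference, and all differences are siHLX minus siCTR. The median of 4.87 and the upper quartiles of 7.08 and 7.10 were alike on both arrays, as quantile normalisation leaves them. The knockdown target HLX had 1 probe set, which read 8.15 on the siCTR array and 7.70 on the siHLX array (difference -0.45, or 0.732 times the control). Of the markers fixed for the cell line, ALK had a mean of both arrays of 12.46, GZMB 13.40 and the CD30 gene TNFRSF8 9.855. In this list 11 of 12 genes lay above the level threshold given below, and CD2 (3.865) did not. The T-cell genes CD3E (5.775) and CD4 (5.795) lay above the threshold but were dim, under some markers of other cells. Of the measured markers of other cells, 3 of 5 for B cells, 2 of 5 for myeloid cells and 2 of 6 for epithelium and stroma lay above the threshold. Over all genes, 12135 of 19775 did. A level above the threshold is thus no sign by itself that a marker is expressed. In these lists CD79A (6.69), CSF1R (6.01) and COL1A1 (7.525) had the highest means, and MS4A1 (3.865), LYZ (3.38) and EPCAM (3.025) the lowest. The poly-A controls spiked into the RNA read lower on the siHLX array on 23 of 24 probe sets, with a mean difference of -0.29 (SD 0.18). Scaling both arrays to equal poly-A controls shifted the gene median from -0.01 to 0.28, and differences below are therefore relative to the bulk of genes. With this scaling the difference of HLX was smaller but still below 0. The part of the poly-A difference in the results was not tested. In a bulk sample, fewer cells that express a gene and less RNA per cell cannot be told apart.

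The class I genes read nearly the same on both arrays, while HLX on the siHLX array still read 0.732 times the control. Of the 25 probe sets, 23 reached the level threshold of 4.865, which is the median level of the non-control probe sets, and the remaining 2 were dim probe sets of HLA-F and TAP2. Among the 23, 15 were lower and 8 higher on the siHLX array relative to the bulk of genes. Their median was -0.03 and they ranged from -0.47 to 0.28. All 22453 probe sets of 1 gene above the threshold had a median of 0.00, with 49.9% lower and 47.5% higher. With poly-A scaling 2 of the 23 were lower and 21 higher, while 87.0% of all these probe sets were higher. The medians were then 0.26 for the members and 0.29 for all. Relative to the bulk of genes, at least 2-fold differences were seen in 0 of the 23, against 0.811% of all probe sets. At least 1.5-fold differences were also seen in 0, against 6.01%. At least 1.2-fold lower were 3 of the 23 (13.0%), against 14.4% of all, and at least 1.2-fold higher was 1 (4.35%), against 13.7%. The 3 lower ones belonged to HLA-E, TAP2 and NLRC5, and the higher one to B2M. The share of lower probe sets at 1.2-fold was thus near that of all probe sets. These shares pool all levels and depend on them. Past 1.2-fold in either direction were 52.3% of all probe sets under a mean of 6 and 3.51% between 10 and 12. Past 2-fold were 0.0% at a mean of 10 or over, where 10 of the members lay, so their count of 0 there carries no information.

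**Figure D1:**
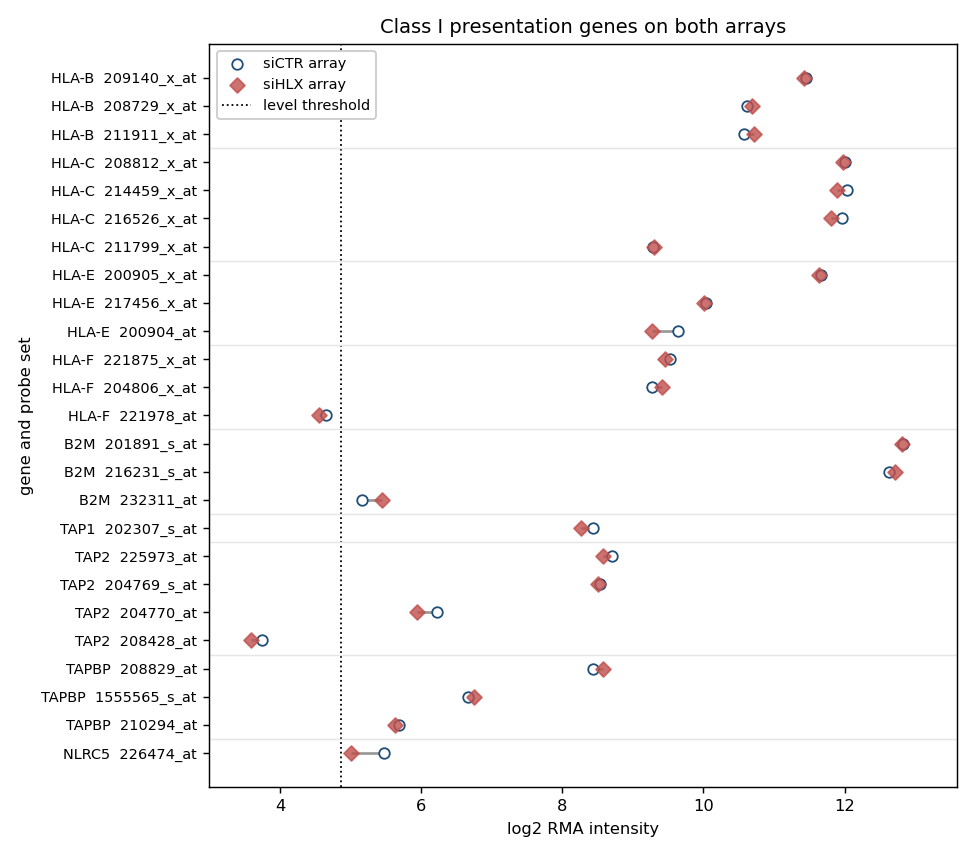
Log2 RMA intensity (x axis) on the siCTR array (open circles) and the siHLX array (filled diamonds) for the 25 probe sets of the 9 genes (y axis), with grey lines joining both readings and a dotted line at the level threshold of 4.865. Most pairs nearly coincide, and the widest gaps are those of HLA-E 200904_at (-0.37) and NLRC5 (-0.47).

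The spread of differences among all probe sets narrowed with level, so each member was set against probe sets of its own band of mean level. From the 5th to the 95th percentile, differences ran from -0.71 to 0.72 under a mean of 6, from -0.43 to 0.44 between 6 and 8, from -0.28 to 0.27 between 8 and 10, from -0.21 to 0.18 between 10 and 12, and from -0.13 to 0.12 at 12 and over. By construction these ranges hold about 90% of probe sets. Of the 23 member probe sets, 22 lay inside the range of their band, and 200904_at of HLA-E lay outside. The 10 members with a mean at or above 10 were confined to differences between -0.16 and 0.14, with a median of -0.03. The 13 dimmer ones ranged from -0.47 to 0.28, with a median of -0.05.

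**Figure D2:**
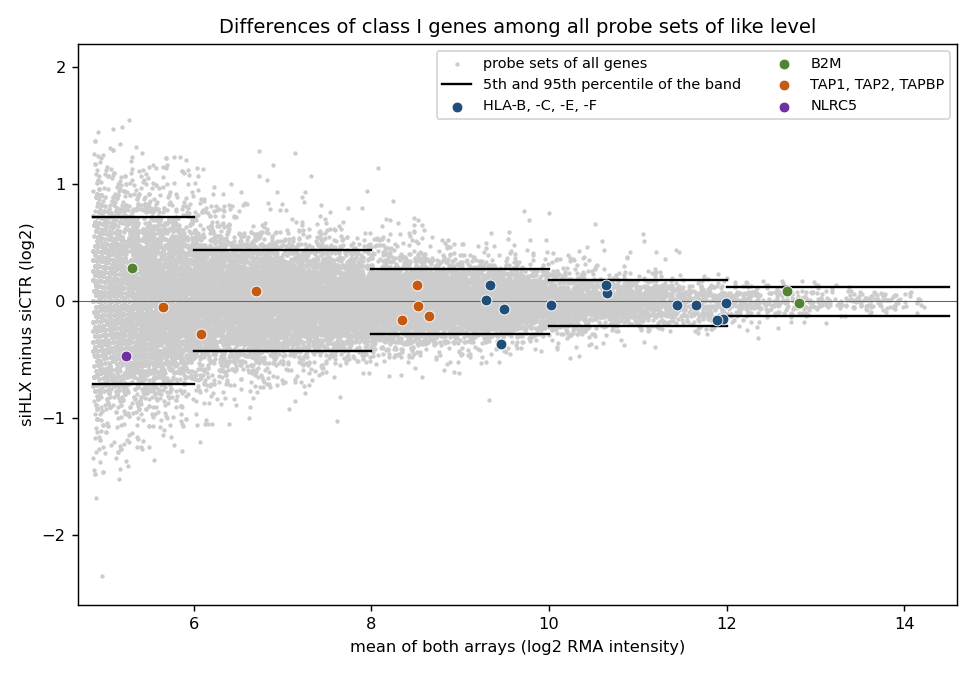
Difference between the arrays (y axis, log2, siHLX minus siCTR) against the mean of both (x axis, log2 RMA intensity) for all probe sets of 1 gene above the level threshold (grey) and for the class I genes (coloured by group); black lines mark the 5th and 95th percentile in each band of level. All class I points lie between these lines except 1 probe set of HLA-E at -0.37, relative to the bulk of genes.

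The classical chains moved little. HLA-B was read by 3 probe sets. Its 209140_x_at went from 11.46 with siCTR to 11.43 with siHLX, 208729_x_at from 10.62 to 10.69, and 211911_x_at from 10.57 to 10.71. The mean difference was 0.06 (SD 0.09 over 3 probe sets), and the sign differed between them. For HLA-C, 208812_x_at read 12 and 11.98, 214459_x_at 12.04 and 11.89, 216526_x_at 11.97 and 11.81, and 211799_x_at 9.29 and 9.30. Of these 4, 3 were lower and 1 higher, with a mean of -0.08 (SD 0.09). The lowest reading of HLA-C, -0.16, is 0.895 times the control, and 7.5% of the 480 probe sets whose mean was within 0.5 of it (called comparable below) were as low or lower. These SDs are between probe sets that read the same RNA and are technical.

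The non-classical chain HLA-E gave discordant readings. Its 200905_x_at read 11.67 with siCTR and 11.64 with siHLX, and 217456_x_at read 10.04 and 10.01, both a difference of -0.03. The remaining probe set, 200904_at, read 9.64 and 9.27, a difference of -0.37 or 0.774 times the control. Among 2591 comparable probe sets, 1.24% were as low or lower. All 3 probe sets were thus lower relative to the bulk of genes, but only 200904_at differed by more than the 5th percentile of its band. With poly-A scaling the brightest probe set of HLA-E, 200905_x_at, lay above 0 at 0.26, whereas 200904_at stayed below 0. For HLA-F, 221875_x_at read 9.53 and 9.46, and 204806_x_at 9.27 and 9.41, so the signs differed. Its dim probe set, 221978_at, read 4.65 and 4.55 below the level threshold.

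The suffix of a probe set bears on how far these readings belong to 1 chain. Probe sets ending in _x_at hold probes that also match other transcripts, and class I chains are alike in sequence. Of the 12 heavy chain probe sets above the threshold, 11 ended in _x_at, and 200904_at of HLA-E was the remaining one. The 11 had a median of -0.03 and lay between -0.16 and 0.14, with 7 lower and 4 higher relative to the bulk of genes. They may share signal from several chains and are not independent readings. Over all genes between a mean of 8 and 10, the SD of the difference was 0.17 for 506 probe sets ending in _x_at and 0.18 for 3167 without a suffix letter, and between 10 and 12, where most of the 11 lay, it was 0.13 for 226 probe sets ending in _x_at and 0.12 for 935 without a suffix letter. The order thus differed between the bands. Which of the HLA-E readings follows its transcript was not tested.

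B2M, the common light chain, was level on its bright probe sets. Its 201891_s_at read 12.83 with siCTR and 12.81 with siHLX, and 216231_s_at read 12.63 and 12.72. The dim 232311_at read 5.16 and 5.44, a difference of 0.28, and 25.5% of 5699 comparable probe sets were as high or higher. The bright probe sets differed in sign, and the dim one lay well inside the range of its band. The mean over the 3 was 0.12 (SD 0.15).

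Relative to the bulk of genes, the transporter genes read slightly lower and the tapasin gene slightly higher, whereas with poly-A scaling TAP1 lay at 0.13. TAP1 went from 8.43 in siCTR to 8.27 in siHLX on its only probe set, a difference of -0.16 or 0.895 times the control. For TAP2, 225973_at read 8.71 and 8.58, 204769_s_at 8.54 and 8.50, and 204770_at 6.22 and 5.94. The fourth, 208428_at, read 3.74 and 3.59 below the threshold. All 4 probe sets of TAP2 were lower relative to the bulk of genes, with a mean of -0.15 (SD 0.10), whereas its brightest was at 0.16 with poly-A scaling. TAPBP read 8.44 and 8.58 on 208829_at, 6.66 and 6.75 on 1555565_s_at, and 5.68 and 5.63 on 210294_at, with a mean of 0.06 (SD 0.10). Among comparable probe sets, 20.1% were as low as TAP1 or lower, 24.0% as low as the brightest of TAP2 or lower, and 21.4% as high as the brightest of TAPBP or higher. None of the readings of these 3 genes left the range of its band.

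NLRC5, the transactivator of class I genes, had the most negative difference of the 9 genes. Its only probe set, 226474_at, went from 5.47 in siCTR to 5.0 in siHLX, a difference of -0.47 or 0.722 times the control. The reading lay close to the level threshold, and 14.8% of 5829 comparable probe sets were as low or lower. With poly-A scaling the difference was -0.18. CIITA, the transactivator of class II genes and a relative of NLRC5, read 5.63 and 4.78 on its brightest probe set, a difference of -0.85, which lay below the 5th percentile of its band. Its other probe sets lay below the level threshold and read -0.83 and 0.46.

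The other genes of class I processing were described by gene, each read on its brightest probe set (highest mean of both arrays). Over all 12135 genes above the threshold the median was -0.01, with 50.2% lower and 47.4% higher, and 0.832% differed at least 2-fold. No gene above the threshold in the 15 lists reached 2-fold on that probe set. In the lists below, signs are relative to the bulk of genes, and those of lists with a median under 0 turned with poly-A scaling except that of NLRC5. Partners of loading and trimming in the ER had a median of -0.05, with 5 of 8 lower, 2 higher and 1 equal. Among them TAPBPL, a tapasin-related editor, had -0.17 and the chaperone gene CANX -0.11, while PDIA3, the oxidoreductase of the loading complex, had 0.21 and the chaperone gene HSPA5 0.02. The reading of PDIA3 lay above the 95th percentile of its band, and its other probe sets read 0.06 and -0.10. The peptidase gene ERAP1, which trims peptides in the ER, read 8.81 on both arrays on its brightest probe set, but its other probe sets above the threshold ranged from -0.31 to 0.58.

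Subunits of the immunoproteasome and its activator were likewise level, with a median of -0.03. Of 5 genes, 3 were lower, 1 higher and 1 equal. PSMB8 had -0.14 and PSMB10 -0.10, both catalytic subunits, whereas PSMB9, whose gene lies head to head with TAP1, read 9.76 on both arrays. PSME1, a subunit of the PA28 activator, had 0.12. The constitutive catalytic subunits PSMB5, PSMB6 and PSMB7 had -0.02, 0.06 and -0.05. Cytosolic peptidases had a median of 0.11, with 4 of 6 higher, but the median was -0.05 without probe sets ending in _s_at or _x_at and 0.035 when probe sets were averaged per gene. NPEPPS, the puromycin-sensitive aminopeptidase, went from 10.40 in siCTR to 10.84 in siHLX on its brightest probe set, a difference of 0.44 above the 95th percentile of its band, but its other probe sets read 0.06 and -0.05. TPP2 had 0.13 on its brightest and between 0.13 and -0.55 over all its probe sets. THOP1 had -0.05 and NRDC -0.01.

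Factors that bind class I promoters had a median of -0.12, with 7 of 11 lower and 4 higher. RFXAP and NFKB1 both had -0.23, RFXANK 0.05 and RFX5 0.04, so the subunits of the RFX complex did not share a sign relative to the bulk of genes. The other probe set of RFXAP read 0.08. The 4 genes of the interferon gamma receptor and its kinases were all lower, with a median of -0.12: JAK2 had -0.23, IFNGR1 -0.14, and IFNGR2 and JAK1 both -0.10. The other probe sets of these genes differed in sign: those of JAK1 reached up to 0.31, those of IFNGR1 read -0.31, below the 5th percentile of its band, and 0.07, and those of JAK2, both below the threshold, read -1.02 and -0.23. Type I interferon-induced genes spread widely, from -0.87 for IFIT2 and -0.46 for IFI6 to 0.43 for IFIT3 and 0.70 for DDX60, with a median of 0.14 and 10 of 15 higher. This median was 0.02 with no level threshold or one at the 75th percentile, and 0.03 when probe sets were averaged per gene. No class I gene other than NLRC5 had a difference beyond 0.16 in either direction on its brightest probe set.

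Genes that control class I at the surface had a median of 0.12, with 4 of 5 higher. TMEM127 had 0.19, WWP2 0.15 and SUSD6 0.08, which together limit surface class I, and the ubiquitin ligase gene MARCHF9 had -0.25. Other probe sets of these genes did not follow: those of TMEM127 read -0.10 and -0.23, and that of MARCHF9 read 0.19. Those of WWP2 read 0.00 above the threshold, and -1.37 and 0.00 below it. The sign of this list depended on the probe sets, as its median was -0.03 when probe sets were averaged per gene. Class I-like and ligand genes had a median of 0.10, with 7 of 10 higher: CD1E had 0.40 and CD1C 0.24, both dim, HLA-G -0.06 and FCGRT, the neonatal Fc receptor, -0.18. HLA-G was read by 4 probe sets ending in _x_at, of which 2 were higher and 2 lower. Receptors for class I had 4 genes above the threshold, with CD8B at 0.16, KIR2DL4 at 0.04, LILRB2 at -0.12 and LILRB1 at -0.23. CD8A lay below it, at 3.59 and 3.99.

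Class II genes stood at low levels in these cells. Of 12 genes, 8 lay above the threshold, against 12135 of all 19775 genes. The highest mean was 6.735, and 7 of the 8 were higher with a median of 0.33. This median was 0.07 without probe sets ending in _s_at or _x_at and 0.11 when probe sets were averaged per gene. HLA-DPA1 went from 6.09 in siCTR to 6.81 in siHLX, a difference of 0.72 above the 95th percentile of its band. HLA-DPB1 read 5.12 and 5.79, a difference of 0.67 inside its band, and HLA-DRA 6.72 and 6.75. The other probe set of HLA-DRA read 6.35 and 5.87, a difference of -0.48 below the 5th percentile of its band. CIITA was the gene that read lower on its brightest probe set. The 4 class I chains lay between -0.07 and -0.02 on their brightest probe sets, relative to the bulk of genes. Probe sets at the level of class II genes spread more than those at the level of class I genes, and whether the groups of genes differ was not tested.

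**Figure D3:**
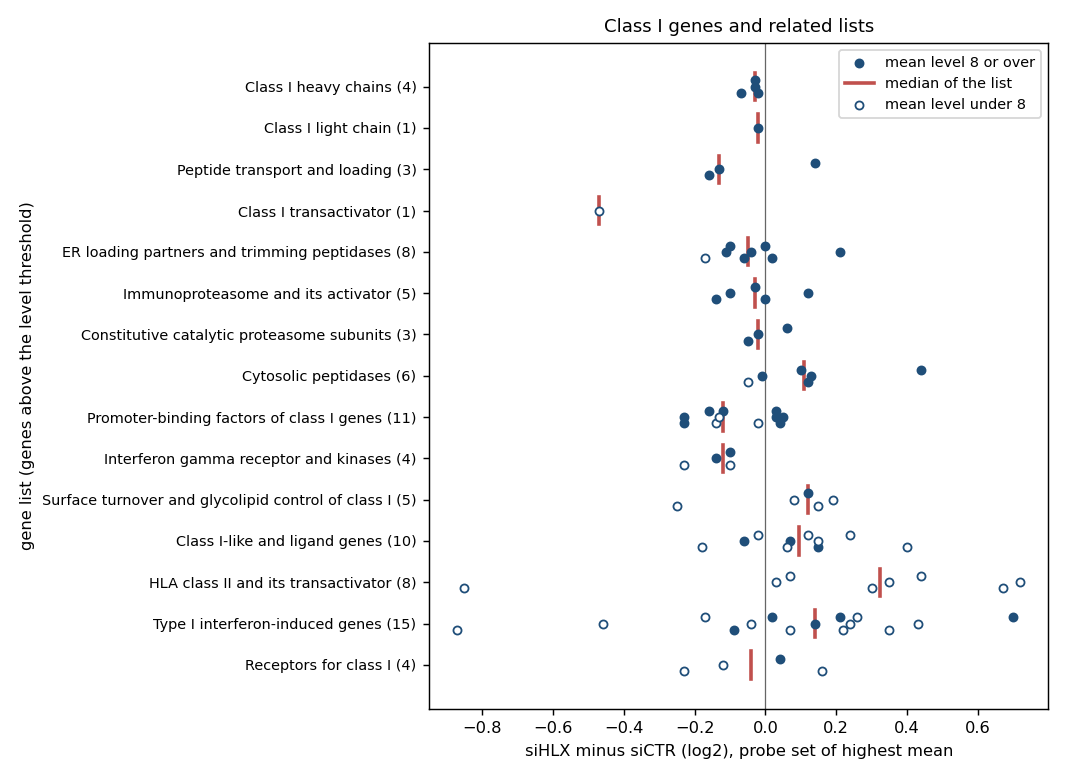
Difference between the arrays (x axis, log2, siHLX minus siCTR) of each gene above the level threshold, by list (y axis, number of genes in parentheses); filled points are genes with a mean of at least 8, open points those below, and red bars the medians. Class I chains and B2M lie close to 0, NLRC5 at -0.47, and class II genes spread from -0.85 to 0.72, all relative to the bulk of genes; with poly-A scaling the medians of chains and B2M lie above 0.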

How the data were processed

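Gene expression of SU-DHL-1 cells was measured on 2 arrays, 1 per siRNA, with groups taken from the treatment in the labels. As deposited, the table held log2 intensities, 1 per probe set and array. According to the methods, RMA background correction and quantile normalisation were performed in R with limma and affy; their versions are not given in the sources used here. Ratios to the sample mean, named in the methods, were not applied in these values. Quantile normalisation hides a change shared by most transcripts.

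The annotation paired 41091 of 54613 non-control probe sets with 1 gene and 1801 with several, and left 11721 unnamed. Of the 41091, 41037 were found by Entrez identifier in the RefSeq gene table (GRCh38.p14). Members and lists were chosen with earlier results of these data known. Named were all members, HLX, and of each further list the 2 most positive and 2 most negative genes above the level threshold, with all genes of lists of up to 4. ALK, GZMB, TNFRSF8, CD2, CD3E, CD4, CD79A, MS4A1, CSF1R, LYZ, COL1A1, EPCAM, ERAP1 and CD8A were named after their values were seen. Medians were compared with those of all probe sets or genes. Alternatives were median centring, lowess (fraction 0.2), repeated quantile normalisation, poly-A scaling, other probe set choices, other level thresholds (none, and the 75th percentile at 7.095) and fold limits of 1.5 and 1.2. Python 3.11.15, pandas 2.3.3 and statsmodels 0.14.6 were used. In simulated checks, a known shift added to shuffled differences returned in their median, which arithmetic ensures. A uniform shift added to the siHLX values was removed by centring, lowess, repeated quantile normalisation and, for the poly-A controls, their scaling. Counts by band and list and the motif search were not simulated.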

Additional observations from a re-analysis of the deposited data

How the results depend on the processing

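No paired analysis was possible because each group had 1 array. A value was counted as moved when it shifted by more than 0.27, the SD between probe sets of a gene at all levels above the threshold. At a mean of 8 or over this SD was 0.14. Small differences can lose their size or sign without being counted as moved, so changes of sign are given too. Median centring, lowess and repeated quantile normalisation moved 0 of 27 values each and changed 0 signs. Centring and repeated quantile normalisation could change little, as the array medians were equal and the values were already quantile normalised. No member probe set passed 2-fold or 1.5-fold, and 4 passed 1.2-fold. With poly-A scaling, 26 of 27 values moved and 18 changed sign, since all shifted by the same 0.29: the median of member probe sets became 0.26, and list medians became 0.26 for heavy chains, 0.27 for the light chain, 0.16 for transport and loading, -0.18 for the transactivator, 0.24 for ER partners, 0.26 for the immunoproteasome, 0.27 for constitutive proteasome subunits, 0.40 for cytosolic peptidases, 0.17 for promoter-binding factors and for the interferon gamma receptor, 0.41 for surface turnover, 0.38 for class I-like genes, 0.61 for class II, 0.43 for type I interferon-induced genes and 0.25 for receptors. Without probe sets ending in _s_at or _x_at, 7 member probe sets were left, HLA-B, HLA-C, TAP1 and the list of receptors gave no value, and of the 23 values that could be had 4 moved and 5 changed sign: the heavy chain median became -0.37 (HLA-E alone) and the light chain 0.28 (the dim probe set). Averaging the probe sets of each gene moved 0 of 25 values and changed 5 signs. Setting no level threshold or a threshold at the 75th percentile moved 0 values and changed 1 sign each. At the 75th percentile the transactivator and class II lists gave no value, as none of their genes reached it. The number of arrays limits the precision.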
